A study of Mus musculus with 24 samples.

Results

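The RNA polymerase II machinery was followed in mouse embryos 1 h after a heat shock. Its members were taken by name from both array tables: the symbols of the polymerase subunits (Polr2), general transcription factors (Gtf2 and Tbp), TBP-associated factors (Taf), Mediator (Med), elongation and histone-passage factors (Supt, Nelf, Tcea and Ell) and Integrator (Ints), on probes with exactly 1 symbol. The rule found 75 genes of 6970 measured. Slide type 1 carried 38 of its 3838 genes (46 of 4749 probes), slide type 2 carried 45 of its 4075 (53 of 4935 probes), and 8 genes were on both, which gave 83 gene values. No filter on low values was applied, so each of the 83 entered the test. A match by name also takes in Taf1a and Taf1d, which belong to the selectivity factor of RNA polymerase I, Gtf2i (TFII-I), a regulated factor outside the core initiation complex, and Supt3 and Taf5l, which sit in SAGA-type coactivators.

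Whole cultured embryos had been held at 43 °C for 15 min, put back at 37 °C and sampled 1 h afterwards, and their total RNA was hybridised together with that of untreated embryos cultured at 37 °C. The labels give no strain, age or number of embryos. The 24 arrays, 12 per slide type, came from 3 numbered treatments with 4 arrays each per slide type, the heat-shocked RNA being in channel 1 on some and in channel 2 on the others. The 4 arrays were averaged with equal weight for both channel orders, so n = 3 treatments for every value, and the labels do not say whether each treatment was a litter of its own. The p-values therefore measure the spread between these treatments only, which may be technical.

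RNA polymerase II transcribes the protein-coding genes and many small nuclear RNAs. The general transcription factors place it on the promoter, with TBP and its associated factors recognising promoter DNA and Mediator carrying signals from enhancer-bound activators. Shortly downstream the enzyme is held by the pausing factors NELF and DSIF until it is released into elongation, and Integrator can cut the RNA of paused polymerase and processes small nuclear RNAs. Heat shock is known to lower the transcription of many genes while heat shock genes are transcribed strongly.

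The values are log ratios whose numerator and log base are not stated; 1 unit would be 2-fold on base 2 and 2.72-fold on a natural log. Each array was centred on its own median. The positive side is a convention, namely channel 1 over channel 2 with the sign turned where the heat-shocked RNA was in channel 2. The heat shock genes Hsph1 (2.28 ± 0.50, SD, n = 3) and Hspb1 (2.23 ± 0.050) and the immediate early genes Jun (1.97 ± 0.33) and Egr1 (1.74 ± 0.72) lay on that side, and a turned sign would exchange the sides of every value below. On slide type 2 deposited arrays of different treatments and the same channel order correlated as low as r = -0.34 over all probes (0.29 on slide type 1). The numerator is not stated, so no rise or fall is settled on either slide type, and the sides below follow the convention only. After both channel orders were averaged, the correlation between treatments was 0.70 to 0.80 for slide type 1 and 0.82 to 0.90 for slide type 2. Deposited array medians ran from -1.51 to 0.65. Without centring the median of all genes moved from -0.038 to 0.27 on slide type 1 and from -0.049 to 0.034 on slide type 2. In whole embryos, fewer cells of a type and less RNA per cell cannot be told apart. A log ratio holds no level, so whether defining markers of embryonic tissues were present cannot be read from it. Of the measured markers, 2 neural and 4 yolk sac endoderm genes on slide type 1 and 4 erythroid genes on slide type 2, only the neuronal tubulin Tubb3 (-0.21 ± 0.040, but 0.094 without centring) passed the test. Their part in the members' values was not tested, and no heart muscle marker was measured.

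The promoters of the 3 members with the largest values, Med14, Ints7 and Med1, and of Taf11, the member called on the positive side whose promoter held both motifs searched, are shown for the DNA on which this machinery assembles. They are the 250 bases before the start, from RefSeq on GRCm38.p6, on the gene's own strand. The stretches lie at chrX:12761974-12762223 on the minus strand for Med14, chr1:191575386-191575635 on the plus strand for Ints7, chr11:98192907-98193156 on the minus strand for Med1 and chr17:27907745-27907994 on the minus strand for Taf11. Capitals mark TATAAA, the TATA box core, or the heat shock element pair GAANNTTC or TTCNNGAA, each searched on both strands.
Med14: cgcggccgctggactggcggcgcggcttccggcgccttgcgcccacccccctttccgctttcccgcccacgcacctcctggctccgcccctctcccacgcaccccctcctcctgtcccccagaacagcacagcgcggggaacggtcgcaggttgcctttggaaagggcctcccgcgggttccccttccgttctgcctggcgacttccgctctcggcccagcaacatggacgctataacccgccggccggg
Ints7: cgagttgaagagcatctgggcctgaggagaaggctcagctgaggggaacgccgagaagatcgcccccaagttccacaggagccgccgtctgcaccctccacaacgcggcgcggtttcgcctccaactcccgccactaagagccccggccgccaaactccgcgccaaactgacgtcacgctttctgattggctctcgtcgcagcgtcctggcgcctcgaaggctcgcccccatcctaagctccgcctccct
Med1: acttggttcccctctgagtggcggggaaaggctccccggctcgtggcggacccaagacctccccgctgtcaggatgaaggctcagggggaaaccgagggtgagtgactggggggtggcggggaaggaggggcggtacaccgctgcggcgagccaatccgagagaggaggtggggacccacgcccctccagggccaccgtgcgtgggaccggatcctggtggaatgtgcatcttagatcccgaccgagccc
Taf11: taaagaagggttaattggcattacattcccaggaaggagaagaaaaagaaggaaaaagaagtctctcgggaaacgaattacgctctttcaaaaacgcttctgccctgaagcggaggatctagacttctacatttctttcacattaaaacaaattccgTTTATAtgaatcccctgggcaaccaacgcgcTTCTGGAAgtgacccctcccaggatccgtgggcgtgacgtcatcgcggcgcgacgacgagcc

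The printed stretches of Med14, Ints7 and Med1 have no capitals (Med14 has 1 GAANNTTC after its start), and their G and C content is 72.0%, 65.2% and 68.0%. In Taf11 (48.0%), shown for 1 of its 2 promoters, the capitals are a TATAAA on the opposite strand and a TTCNNGAA. RefSeq promoters, taken from 250 bases before to 50 after the start, matched 63 of the 75 members with 76 promoters. TATAAA was in 11.8% of these 76 and in 13.6% of all 32851 promoters of the same length. Either form of the heat shock element pair was in 18.4% and 15.1%, respectively. The median G and C content of the upstream bases was 60.2% for members and 52.4% for all promoters. A match is a description of letters, not a binding site.

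Most of the machinery lay close to 0. On slide type 1, 2 members passed the test on the positive side (5.26% of 38, against 5.73% of all genes) and 6 on the negative side (15.8%, against 5.65%), with 30 not called. Called means an adjusted limma p below 0.05 over all genes of the slide type. On slide type 2, 8 were called positive (17.8% of 45, against 18.5% of all genes) and 14 negative (31.1%, against 31.9%), so there the members' shares were near the background on both sides. The member median was -0.055 on slide type 1, where that of all genes was -0.038, and -0.030 on slide type 2, where it was -0.049. Of the values, 29 of 38 on slide type 1 (76.3%, against 87.2% of all genes) and 31 of 45 on slide type 2 (68.9%, against 65.8%) were within 0.2 units of 0. Counting each gene once, 29 of the 75 members were called on at least 1 slide type and 46 were not. The split depends on the point taken as 0. With arrays centred on the probes with 1 symbol, 2 members were positive and 3 negative on slide type 1, against 6.62% and 3.10% of all genes. On slide type 2 they were 13 and 8, against 30.7% and 21.1%. Without centring they were 2 and 0 (against 6.85% and 0.13%), and 1 and 0 (against 1.87% and 1.60%).

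**Figure D1:**
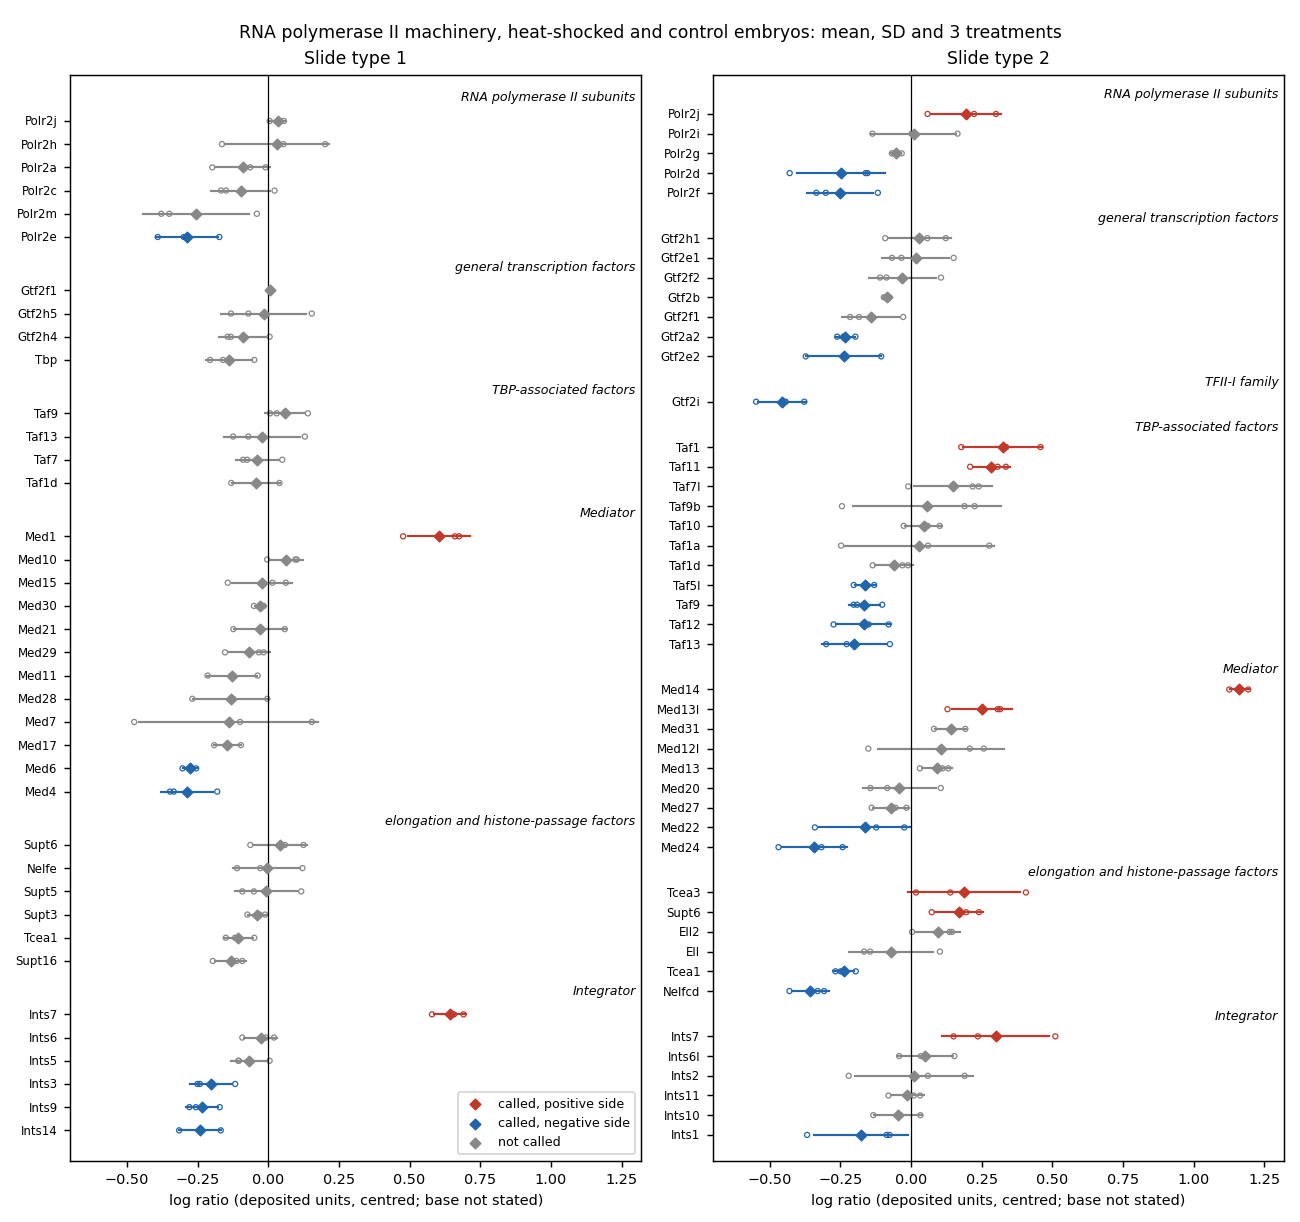
Log ratio of every member by role, slide type 1 at the left and slide type 2 at the right; open circles are the 3 treatments, diamonds their mean and bars the SD. Med14 at 1.16 on slide type 2 and Ints7 and Med1 at 0.64 and 0.60 on slide type 1 stand to the right of all other members, and most others lie within 0.2 units of 0.

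The polymerase subunits, counted by name and so with the associated Polr2m, showed small values. They were negative for 4 of 6 on slide type 1 (against 67.1% of all genes), though for 0 of 6 without centring. On slide type 2 they were negative for 3 of 5 (against 57.9%), so both shares were near the background. The largest on slide type 1 was that of Polr2e, a subunit shared by RNA polymerases I, II and III, with -0.30, -0.39 and -0.17 in treatments 1 to 3 (mean -0.29 ± 0.11, adjusted p = 0.014). It was negative on 11 of 12 arrays in the range -0.49 to 0.10, but at 0.016 without centring. Polr2f on slide type 2, likewise shared by the 3 polymerases, gave -0.33, -0.30 and -0.12 (mean -0.25 ± 0.12, adjusted p = 0.0033). Polr2d, which forms the stalk with Polr2g, gave -0.15, -0.43 and -0.16 (mean -0.25 ± 0.16, adjusted p = 0.0052), with treatment 2 the lowest and 0.029 and -0.52 in the channel orders. Its stalk partner Polr2g was at -0.053 ± 0.018 and was not called. The catalytic subunit Polr2a was at -0.090 ± 0.10 on slide type 1 (adjusted p = 0.40). Polr2m, which associates with a form of the enzyme that needs Mediator, was at -0.38, -0.35 and -0.040 and missed the threshold (mean -0.26 ± 0.19, adjusted p = 0.051). Of the subunits measured, 0 of 6 were called positive and 1 negative on slide type 1 (median -0.094), and 1 of 5 positive and 2 negative on slide type 2 (median -0.053). These counts, like those of each role and list below, stand against 5.73% positive and 5.65% negative among all genes of slide type 1 and 18.5% and 31.9% of slide type 2.

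The positive one was Polr2j, at 0.22, 0.059 and 0.30 on slide type 2 (mean 0.19 ± 0.12, adjusted p = 0.016). Its 2 probes there differed, at -0.05 and 0.43, and on slide type 1 it was at 0.034 ± 0.026 and not called.

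Among the general initiation factors, none of the 4 on slide type 1 passed limma's test, and 2 of the 7 on slide type 2 did, both negative. Gtf2e2, a subunit of TFIIE, which recruits TFIIH, gave -0.37, -0.24 and -0.11 (mean -0.24 ± 0.13, adjusted p = 0.0053), but stood at 0.016 with heat-shocked RNA in channel 1 and at -0.49 in channel 2. Gtf2a2, the small subunit of TFIIA, which steadies TBP on DNA, gave -0.24, -0.26 and -0.20 (mean -0.23 ± 0.033, adjusted p = 0.0033). The other TFIIE subunit, Gtf2e1, was at 0.017 ± 0.12 (adjusted p = 0.83). TFIIB (Gtf2b) was at -0.085 ± 0.010 and was not called (adjusted p = 0.21), although its 3 treatments lay within -0.10 and -0.076. TBP itself, the largest of the role on slide type 1, was at -0.21, -0.16 and -0.049 (mean -0.14 ± 0.081, adjusted p = 0.17). The TFIIH subunits Gtf2h1, Gtf2h4 and Gtf2h5 lay between -0.090 and 0.030, and none was called.

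TFII-I (Gtf2i), a signal-responsive factor that binds initiator and E-box elements, had the most negative value of all members. It gave -0.44, -0.55 and -0.38 on slide type 2 (mean -0.46 ± 0.086, adjusted p = 1.64e-05, rank 182 of 4075 by size), and its 2 probes agreed at -0.46 and -0.45. Its arrays ran from -1.56 to 0.44, and this range followed the channel order. With the heat-shocked RNA in channel 1 its mean was -0.030, and in channel 2 it was -0.88. In treatment 2 the orders stood on opposite sides, at 0.42 and -1.51.

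The genes named as TBP-associated factors, among them Taf1a and Taf1d of the polymerase I factor and Taf5l of SAGA-type complexes, had 0 calls of 4 on slide type 1. On slide type 2 they were divided, with 2 called positive and 4 negative of 11. Taf1, the large scaffold subunit of TFIID, gave 0.46, 0.18 and 0.34 (mean 0.32 ± 0.14, adjusted p = 6.59e-04). Taf11 gave 0.21, 0.34 and 0.31 (mean 0.28 ± 0.066, adjusted p = 9.45e-04). Taf13, the histone-fold partner of Taf11, was on the other side, at -0.23, -0.30 and -0.075 (mean -0.20 ± 0.12, adjusted p = 0.012). The pair therefore had opposite signs in each of the 3 treatments, a difference that was not tested and that rests on the equal weighting of the channel orders. Taf11 was at 0.69 with heat-shocked RNA in channel 1 and at -0.12 in channel 2, and Taf13 at 0.053 and -0.45. Taf1 likewise was at 0.68 and -0.034. The other negative calls were Taf9 (-0.17 ± 0.055) and Taf12 (-0.17 ± 0.10), further histone-fold subunits, and Taf5l (-0.16 ± 0.036). Of these Taf12 and Taf5l were above 0 in channel 1 (0.0042 and 0.17) and below it in channel 2 (-0.34 and -0.49). The 5 others on slide type 2 ran from -0.059 to 0.15, the upper end being Taf7l, a germ-cell paralogue of Taf7 (adjusted p = 0.056). On slide type 1 the largest was Taf9 at 0.059.

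**Figure D2:**
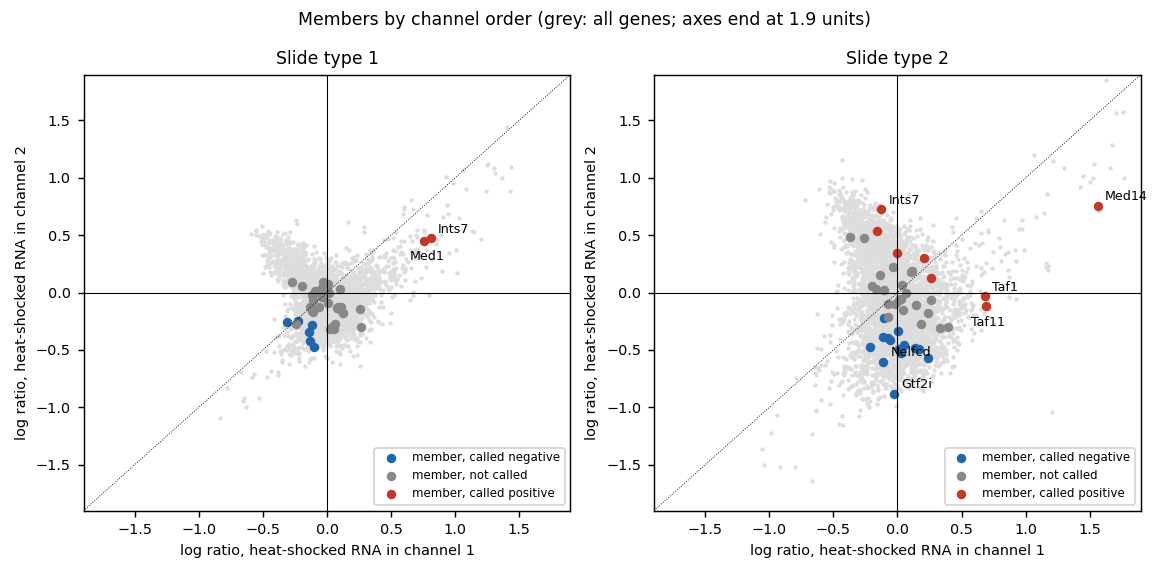
Each member's log ratio with heat-shocked RNA in channel 1 (horizontal) against channel 2 (vertical), with all genes in grey, coloured by call; the dotted line marks equality and genes beyond 1.9 units are not shown. On slide type 1 called members share a sign in both orders, whereas on slide type 2 Taf1, Taf11 and Ints7 are near or across 0 in 1 order and only Med14 is far from 0 in both.

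No call of slide type 2 held in each channel order taken alone. The departure of either order from the mean of both had an SD over all genes of 0.13 to 0.22 per treatment for slide type 1. For slide type 2 it was 0.20, 0.55 and 0.24 in treatments 1, 2 and 3. Averaged over treatments, all 8 called members of slide type 1 had the same sign in both orders (98.2% of all called genes there). On slide type 2 this held for 10 of the 22 (45.5%, against 61.9% of all called genes), and the other 12 changed sign between orders. Averaging both orders cancels an additive dye effect. With heat-shocked RNA in channel 1 alone, 1 of 45 members was called on slide type 2, and with it in channel 2 alone, 0 of 45, when 50 and 24 genes of 4075 were called.

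Mediator held the largest value of the machinery. Med14, the backbone subunit that joins its modules, gave 1.19, 1.13 and 1.16 in treatments 1 to 3 on slide type 2 (mean 1.16 ± 0.034, adjusted p = 1.34e-10), rank 21 of 4075 genes by size. It was positive on 12 of 12 arrays, with 0.28 the lowest, 1.19 the median and 2.01 the highest, which held for 51 genes of that slide type (1.25%). The channel orders gave 1.56 and 0.76. They differed most in treatment 2, at 1.96 and 0.30. Med1, the subunit through which nuclear receptors contact the complex, gave 0.48, 0.66 and 0.68 on slide type 1 (mean 0.60 ± 0.11, adjusted p = 1.86e-04), rank 49 of 3838. It too was positive on 12 of 12 arrays, from 0.27 to 0.95, and in both orders, at 0.76 and 0.45.

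Other Mediator subunits lay on the negative side. Med4, of the middle module, gave -0.18, -0.33 and -0.35 (mean -0.29 ± 0.093, adjusted p = 0.012), and Med6, of the head module, -0.28, -0.25 and -0.30 (mean -0.28 ± 0.024, adjusted p = 0.0089), both on slide type 1, and both flipped to 0.016 and 0.026 without centring. Med24, of the tail module, gave -0.24, -0.47 and -0.32 on slide type 2 (mean -0.34 ± 0.12, adjusted p = 3.22e-04). Med24 was below 0 on 12 of 12 arrays, from -0.89 to -0.11, as were 75 genes of slide type 2 (1.84%). Ints9 on slide type 1 was the only other member below 0 on 12 of 12 arrays, as were 126 genes there (3.28%). The head subunit Med22 was at -0.16 ± 0.16 (adjusted p = 0.047) and had 0.24 and -0.57 in the channel orders. The kinase-module subunit Med13l gave 0.32, 0.31 and 0.13 (mean 0.25 ± 0.11, adjusted p = 0.0030), and its paralogue Med13 0.13, 0.11 and 0.031 without a call (adjusted p = 0.19). In all, 1 of 12 Mediator subunits was called positive and 2 negative on slide type 1 (median -0.097), and 2 and 2 of 9 on slide type 2 (median 0.092). Of those not called on slide type 1, Med7 had the widest spread between treatments, at -0.10, -0.47 and 0.15, and a single array at -1.96 where the median of its 12 was 0.052.

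**Figure D3:**
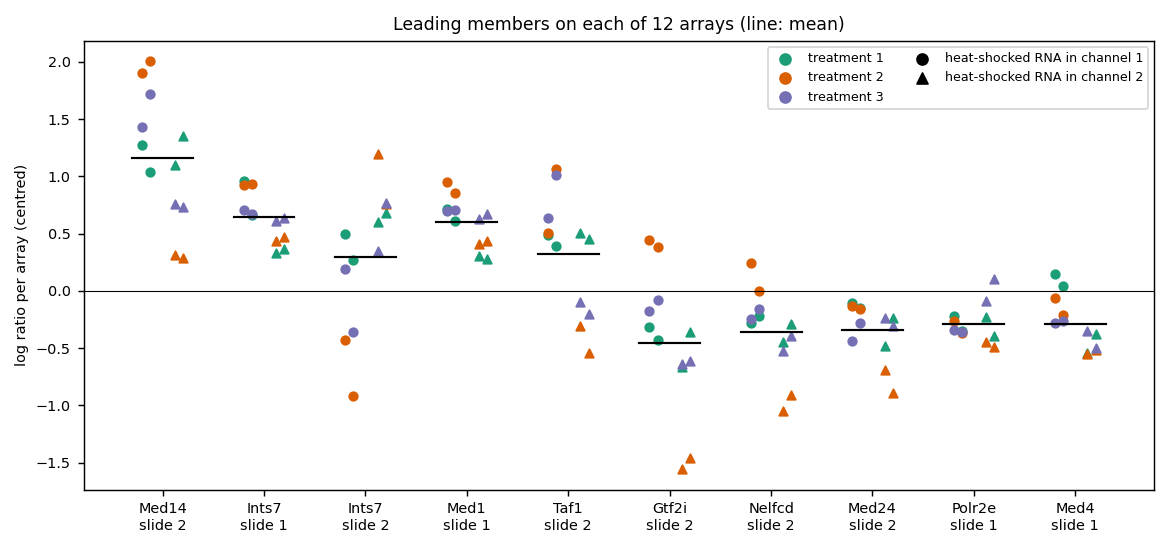
Log ratio of 10 leading values on each of 12 arrays, coloured by treatment, with circles for heat-shocked RNA in channel 1 and triangles for channel 2; the line is the mean over treatments. Med14, Ints7 on slide type 1 and Med1 are above 0 on every array and Med24 is below 0 on every array, while Gtf2i, Taf1 and Ints7 on slide type 2 spread across 0 with the channel order, most in treatment 2.

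The elongation and histone-passage factors, counted by name and so with Supt3 (-0.038) of SAGA-type complexes, ran from -0.13 to 0.040 on slide type 1, where 0 of 6 were called. The largest was Supt16, a subunit of the histone chaperone FACT, at -0.13 ± 0.055 (adjusted p = 0.17). Supt5, the DSIF subunit, was at -0.0084 ± 0.11 and the NELF subunit Nelfe at -0.0057 ± 0.12. Another NELF subunit, Nelfcd, on slide type 2 gave -0.31, -0.43 and -0.33 (mean -0.36 ± 0.065, adjusted p = 1.48e-04), with -0.11 and -0.60 in the channel orders. Tcea1, the ubiquitous form of TFIIS, which restarts backtracked polymerase, gave -0.27, -0.25 and -0.20 (mean -0.24 ± 0.037, adjusted p = 0.0029). Its relative Tcea3 was on the positive side but uneven, at 0.41, 0.018 and 0.14 (mean 0.19 ± 0.20, adjusted p = 0.033), and changed sign between orders, at -0.16 and 0.53. The histone chaperone Supt6 was called positive at 0.17 ± 0.086, with -0.0020 and 0.34 in the channel orders, and lost the call without treatment 1 and without treatment 3. The super elongation complex subunits Ell and Ell2 were at -0.069 ± 0.15 and 0.10 ± 0.079 and were not called.

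Integrator held Ints7, which was called on both slide types, as 1 of the 8 members and 81 of the 943 genes (8.59%) present on both were. It gave 0.58, 0.69 and 0.66 on slide type 1 (mean 0.64 ± 0.057, adjusted p = 8.56e-05, rank 42 of 3838). It was above 0 on 12 of 12 arrays, from 0.33 to 0.96, as were 141 genes of slide type 1 (3.67%), and the orders gave 0.81 and 0.48. On a probe of slide type 2 it gave 0.51, 0.15 and 0.24 (mean 0.30 ± 0.19, adjusted p = 0.0021). There its arrays ran from -0.92 to 1.19 and its orders were at -0.13 and 0.72. Another 3 subunits were called on the negative side of slide type 1, and all of them lay above 0 without centring. Ints14 gave -0.32, -0.24 and -0.17 (mean -0.24 ± 0.074, adjusted p = 0.023, 0.063 without centring). Ints9, partner of the endonuclease Ints11, gave -0.28, -0.26 and -0.17 (mean -0.24 ± 0.056, adjusted p = 0.023, 0.068 without centring). Ints3, also part of a complex that binds single-stranded DNA, gave -0.24, -0.12 and -0.25 (mean -0.20 ± 0.075, adjusted p = 0.048, 0.10 without centring). The endonuclease Ints11 itself was at -0.013 ± 0.059 on slide type 2. Ints1, the large scaffold subunit, was called negative there at -0.18 ± 0.17 (adjusted p = 0.034), with -0.37 in treatment 2 against -0.086 and -0.076. Its sign turned with the channel order, at 0.13 and -0.49. Of 6 subunits on each slide type, 1 was positive and 3 negative on slide type 1, and 1 positive and 1 negative on slide type 2.

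The 8 genes on both slide types give a measurement of each on separate probes of the same treatments. The sign was shared by 6 of 8, and by 575 of 943 genes (61.0%) overall. With channel 1 alone 1 of the 8 shared a sign, with channel 2 alone 7, and with a treatment left out 4 to 5. Polr2j, Supt6, Taf13 and Tcea1 had 1 sign on both and were called on slide type 2 alone; on slide type 1 they were at 0.034 ± 0.026, 0.040 ± 0.10, -0.022 ± 0.13 and -0.11 ± 0.052. Taf1d was at -0.043 ± 0.085 and -0.059 ± 0.067. Gtf2f1, the large subunit of TFIIF, was at 0.0072 ± 0.0043 on slide type 1 and -0.14 ± 0.10 on slide type 2, and Taf9 at 0.059 ± 0.071 and -0.17 ± 0.055. Probes of a gene also differed within a slide type, as for Tcea1 on slide type 1 (0.09, -0.22 and -0.19) and Supt6 on slide type 2 (0.29 and 0.05).

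**Figure D4:**
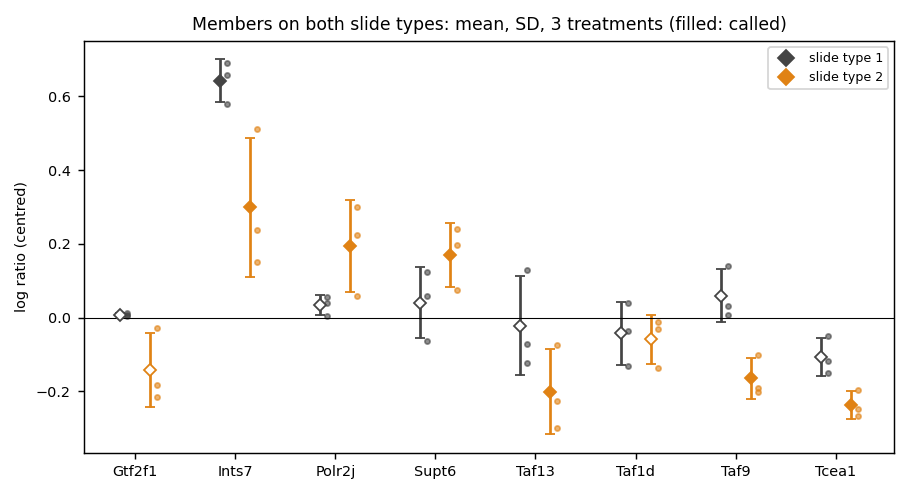
Mean, SD and treatments (points) of the 8 members on both slide types, slide type 1 in grey and slide type 2 in orange, with filled diamonds for called values. Ints7 is called on both, while Gtf2f1 and Taf9 lie above 0 on slide type 1 and below 0 on slide type 2.

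Calls differed in how far they rested on a single treatment. On slide type 1, 3 of the 8 calls held whichever treatment was left out, those of Ints7, Med1 and Med4. On slide type 2 this was 11 of 22. Of these, 8 also had 1 sign in both channel orders when averaged over treatments, namely Nelfcd, Tcea1, Gtf2a2, Med14, Med24, Med13l, Polr2f and Gtf2i. In treatment 2 alone the orders stood on opposite sides for Nelfcd (0.12 and -0.98), Tcea1 (0.43 and -0.93) and Gtf2a2 (0.14 and -0.66). The same held for Polr2f (0.27 and -0.87) and Gtf2i (0.42 and -1.51). With a single channel order only Med14 stayed called, in channel 1. Without treatment 1 slide type 1 kept 3 calls in all, and without treatment 2 it had 4. Without treatment 2, whose channel orders differ most, slide type 2 had 13 positive and 12 negative calls, and without treatment 1 it had 4 and 9. Against a margin of 0.2 units in place of 0, limma's treat test kept Ints7 and Med1 on slide type 1 and 2 members on slide type 2, 1 on each side. Of all genes it called 1.93% positive and 0.50% negative on slide type 1, and 1.72% and 5.33% on slide type 2.

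Genes that work beside this machinery are given from lists of named genes. Of the kinases and pause-release factors, 0 of 9 were called positive and 1 negative on slide type 1, and 1 and 1 of 8 on slide type 2. Mllt1, a reader protein of the super elongation complex, was at -0.24 ± 0.066 on slide type 1 (adjusted p = 0.022, 0.064 without centring). The CTD kinase Cdk12 on slide type 2 was at -0.25 ± 0.10 (adjusted p = 0.0025) and Ccnt1, the cyclin of the pause-release kinase P-TEFb, at 0.15 ± 0.11 (adjusted p = 0.043). The PAF complex travels with elongating polymerase. On slide type 1, 2 of its 5 subunits measured were called, both positive: Rtf1 (0.24 ± 0.081) and Ctr9 (0.23 ± 0.026), whose 3 probes ran from -0.043 to 0.73. Not called there were Cdc73 (0.19), Paf1 (0.13) and Leo1 (-0.12). Of 3 measured on slide type 2, Paf1 was called (0.29 ± 0.086, with -0.061 and 0.64 in the channel orders), whereas Cdc73 (0.12) and Rtf1 (-0.096) were not. The list of PAF, elongin and further elongation genes had 2 positive and 0 negative calls among 9 on slide type 1. It had 1 positive and 2 negative among 6 on slide type 2, the latter being Setd2 (-0.32 ± 0.081), the histone methyltransferase that travels with polymerase, and Eloc (-0.31 ± 0.059), elongin C.

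Other factors of initiation and of the polymerase tail gave 1 positive and 1 negative call of 6 on slide type 1 and 0 and 4 of 9 on slide type 2. Rprd1a, a protein that binds the polymerase tail, was positive at 0.55, 0.92 and 0.30 (mean 0.59 ± 0.31, adjusted p = 0.0039), with 1.02 and 0.17 in the channel orders. The tail phosphatase Ctdsp2 was called negative in both tables. It gave -0.20, -0.25 and -0.25 on slide type 1 (mean -0.23 ± 0.025, but 0.072 without centring). On slide type 2 it gave -0.53, -0.74 and -0.45 (mean -0.58 ± 0.15, adjusted p = 3.54e-06). The others on slide type 2 were Ctdsp1 (-0.27 ± 0.086) and both subunits of the TBP-binding repressor NC2, Dr1 (-0.29 ± 0.037) and Drap1 (-0.22 ± 0.14). Dr1 and Drap1 changed sign with the channel order, at 0.0087 and -0.58 and at 0.050 and -0.49. Ctdsp1 was at -0.018 and -0.51. Genes of cleavage, polyadenylation and termination were called in 0 of 11 cases on slide type 1 and in 5 of 8 on slide type 2, each time on the negative side, against 31.9% of all genes called negative there. These were Pabpn1 (-0.38 ± 0.11), the nuclear poly(A)-binding protein, Cstf1 (-0.26 ± 0.058), Cpsf1 (-0.28 ± 0.14), the endonuclease Cpsf3 (-0.17 ± 0.093) and the exonuclease Xrn2 (-0.18 ± 0.22). Xrn2 turned with the channel order (0.074 and -0.44) and was at 0.013 ± 0.12 on slide type 1. The channel orders were at -0.0018 and -0.52 for Cstf1 and at -0.057 and -0.71 for Pabpn1. For Cpsf1 they were at -0.097 and -0.47, and for Cpsf3 at -0.036 and -0.31.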

How the data were processed

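The data are log ratios of 24 arrays with 2 channels, in 1 table per slide type, treated as a score: the authors deposited them without saying, in the labels, which channel is the numerator, the log base or how they were normalized. Each table held 7680 probes and 12 arrays, with 0 missing values and 0 columns left unmapped. Gene symbols came from GEO's platform annotation of the probes; 227 and 275 probes with several symbols and 2704 and 2470 with none were left out. The channel came from the labels. Arrays were centred on their median, signs turned, means taken per channel order and then per treatment, and probes averaged per gene. An intercept was tested with limma 3.58.1 in R 4.3.3 (lmFit, eBayes) with Benjamini-Hochberg adjustment at 0.05 over all genes of a slide type, and checked on simulated data. The simulated data held independent noise and no channel orders, so the check cannot speak for calls that turn with the order. Spots gave no depth; 3 treatments limit the precision.

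Members and lists were chosen with earlier results of these data known. Genes named were the 12 largest called members per slide type, those on both slide types, the largest of each role and up to 4 genes per list with the smallest p; further members were named after their values were seen. Alternatives changed centring, channel order, suffix arrays, averaging, prior, spread, probe, margin, treatments and the replicate block. Figures used matplotlib 3.10.9.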

Additional observations from a re-analysis of the deposited data

Results flagged for a closer look

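Of the members on both slide types, 2 had all 3 treatments on opposite sides. Gtf2f1 was at 0.0072 on slide type 1 and at -0.14 on slide type 2, and Taf9 at 0.059 and -0.17. On slide type 1 neither was called, Gtf2f1 was positive on 6 of 12 arrays, and Taf9 turned with the channel order (0.26 and -0.14). The difference between slide types was not tested, and their probes differ.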

How the results depend on the processing

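Called members, positive and negative, numbered 2 and 6 (8 in all) on slide type 1 and 8 and 14 (22) on slide type 2. Without centring they were 2 and 0 (2), and 1 and 0 (1), against 6.85% and 0.13%, and 1.87% and 1.60%, of all genes. Ints14 (0.063), Ints9 (0.068), Ints3 (0.10), Med4 (0.016), Med6 (0.026) and Polr2e (0.016) of slide type 1 then turned positive. Centred on probes with 1 symbol, the numbers were 2 and 3 (5), and 13 and 8, against 6.62% and 3.10%, and 30.7% and 21.1%, of all genes. With heat-shocked RNA in channel 1 alone they were 4 and 4, and 1 and 0 (1), against 10.6% and 11.2%, and 1.08% and 0.15%, of all genes. There the sign turned for Gtf2h5 on slide type 1 (0.26, called only in this setting) and on slide type 2 for Tcea3 (-0.16), Supt6 (-0.0020), Gtf2e2 (0.016), Ints7 (-0.13), Ints1 (0.13), Med22 (0.24), Polr2d (0.029), Taf13 (0.053), Taf12 (0.0042) and Taf5l (0.17). In channel 2 alone they were 2 and 2 (4), against 1.80% and 3.26% of all genes, and 0 and 0 (0), where limma called 24 of 4075 genes. There Taf1 (-0.034) and Taf11 (-0.12) turned. Each channel order uses fewer arrays. The arrays without and with the suffix, which each hold both channel orders, gave 19 and 17 calls on slide type 2. Why the calls fell in a single order was not tested. Arrays with the suffix gave 2 and 1 (3) on slide type 1, against 3.67% and 1.95% of all genes. Arrays scaled to a common spread gave 5 and 3 (8) on slide type 2, against 5.18% and 13.2%. The 0.2 unit margin gave 2 and 0 (2), against 1.93% and 0.50%, and 1 and 1 (2), against 1.72% and 5.33%. Leaving out each treatment gave 1 to 6 negative and 3 to 8 calls in all on slide type 1, where 1.38% to 6.38% of all genes were negative. On slide type 2 it gave 4 to 13 positive, 9 to 12 negative and 13 to 25 in all. Of all genes there, 7.19% to 24.1% were positive and 22.9% to 30.1% negative. The treatment as a random replicate block on 6 values per slide type, added after the data were seen, gave 9 and 25 calls, and 8 and 23 with a channel term. The correlation within a treatment was -0.40 on slide type 1 and -0.86 on slide type 2, and 0.021 and -0.82 with a channel term. A negative correlation makes the error of the mean smaller in such a fit, so these counts are no separate support for the calls. Of the 8 members on both slide types, 6 shared a sign, 1 with channel 1 alone, 7 with channel 2 alone and 4 to 5 with a treatment left out. Ints7 on slide type 1 and Med1 stayed called in each of 16 settings and Med14 in 15, the exception being channel 2 alone. Except where a value or construction is given, the cause was not tested. Spot signals were not used, so what dim spots limit is unknown.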

Other observations

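RNA polymerases I and III, which make ribosomal RNA and small RNAs such as transfer RNA, were measured by 12 genes on each slide type. None was called on slide type 1 by limma, where the list median was -0.060, and 3 were called positive and 4 negative on slide type 2 (median -0.11). Polr3f, a subunit of RNA polymerase III, gave 1.08, 0.60 and 0.73 on slide type 2 (mean 0.80 ± 0.25) in both channel orders (0.97 and 0.64), but on its probe of slide type 1 gave 0.10, 0.15 and -0.39 (mean -0.043 ± 0.30). The 2 alternative forms of another RNA polymerase III subunit were on opposite sides of slide type 2, Polr3g at -0.38 ± 0.082 and Polr3gl at 0.23 ± 0.063. Ubtf, the factor that binds ribosomal DNA promoters, was at -0.37 ± 0.11. Polr1e was at 0.22 ± 0.049 there but at -0.10 ± 0.026 on slide type 1, below 0 in all 3 treatments. Polr1d, shared by polymerases I and III, was at -0.21 ± 0.077 on slide type 2, with 0.040 and -0.47 in the channel orders. On slide type 1 it was at -0.10 ± 0.072.

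Probes with more than 1 symbol, which entered no count, included 2 with a member's symbol on slide type 1 and 7 on slide type 2. A probe listed for both Polr2b and Igfbp7 gave -0.64, -0.88 and -0.59 (mean -0.70 ± 0.16) on slide type 2, beyond every member with 1 symbol on the negative side, and which of the 2 genes it measured cannot be told from the annotation. A probe for Taf10 and Ilk gave -0.21 ± 0.10, and a probe for Nelfa and Nsd2 gave -0.16 ± 0.057.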
